A study of Mus musculus with 10 samples.

Results

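The collagen genes are the 44 genes, of 55401 in the deposited tables, whose name is Col, a type number, the letter a and a chain number. Each was placed in a structural class from textbook knowledge, which gave 11 fibrillar, 6 basement membrane, 9 FACIT (fibril-associated collagens with interrupted triple helices), 3 network, 6 beaded, 2 multiplexin and 4 transmembrane genes. The remaining 3 genes are Col7a1, which forms anchoring fibrils, and Col26a1 and Col28a1, which belong to none of these classes.

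Collagens are secreted or membrane-bound proteins in which chains wind into a triple helix, and the class describes what the trimers build. Fibrillar trimers pack into the banded fibrils that carry tension, FACITs coat these fibrils, beaded type VI forms microfibrils around cells, and type IV forms the sheet of the basement membrane, where multiplexins are also anchored. In the heart, fibrillar collagen is made mainly by fibroblasts, and a basement membrane surrounds each cardiomyocyte, capillary and smooth muscle cell.

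Left ventricle (LV) tissue was sequenced from 4-week-old wild-type (WT) mice on the C57BL/6 background that had been operated on as neonates. Neonatal ascending aorta constriction (nAAC) narrows the ascending aorta, so that the LV works against a higher pressure while the mouse grows, and sham mice underwent surgery without the constriction. There were 5 nAAC and 5 sham mice with 1 library per mouse, bulk LV tissue with all its cell types and no other allele or agent in either group. The comparison asks which classes of collagen transcript differ in the pressure-overloaded young LV. Values are FPKM (fragments scaled to transcript length and library depth), and differences are log2 fold changes (log2 FC) of nAAC against sham on the log2(FPKM + 1) scale, which understates the change of low genes. A gene is said to have risen or fallen, or is called a differentially expressed gene (DEG), where limma gave a log2 FC beyond 1 in either direction with a Benjamini-Hochberg adjusted p below 0.05.

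The libraries held an estimated 4.86 to 6.82 gigabases in nAAC and 5.06 to 5.25 in sham mice, with 11889 to 12455 and 11182 to 11721 genes at an FPKM of at least 1. Myl2, a ventricular myosin light chain, was at 3654 and 3668 FPKM in nAAC and sham mice. Sham replicate 4 stood apart from the other sham mice: its deviations from the sham mean fell with transcript length (Spearman's rho of -0.659 across genes, which are not independent replicates, against -0.019 to 0.466), and it held the lowest sham value of 15 of the 21 collagen genes tested. The median of all genes tested was itself shifted by 0.22 towards nAAC. Median-ratio scaling of the libraries, which removes this shift, changed the count of DEGs over all genes from 595 higher and 106 lower to 371 higher and 206 lower.

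Of the 44 collagen genes, 21 had a mean FPKM of at least 1 and were tested, and 18 of these rose while none fell. Over all 11867 genes tested, 5.01% were called higher and 0.893% lower. Since a gene that is high in nAAC mice alone can pass the filter on the mean, 5 of the 21 (Col4a3, Col4a4, Col9a2, Col12a1 and Col16a1) entered the test with a sham mean below 1. Of the other 16, 13 rose. The tested members nearest to that limit were Col4a3 at 1.65 and Col9a2 at 1.009 FPKM over the 10 mice, and the closest below it were Col8a2 at 0.785 and Col26a1 at 0.689. The median log2 FC was 1.51 over the collagens tested and 0.22 over all genes. After median-ratio scaling 14 of the 21 were still called, against 3.13% of all genes, with medians of 1.28 and -0.00. The 14 include Col4a3, Col9a2, Col12a1 and Col16a1, which entered the test only through their nAAC level. Both collagen medians also include all 5 such genes. In this bulk tissue, more cells of a type and more RNA per cell cannot be told apart.

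In 19 of the 21 tested genes the lowest nAAC value exceeded the highest sham value, as it did for 18.9% of all genes tested. The 19 include the 5 genes that entered the test only through their nAAC level, which are no support for this count. The exceptions, Col5a3 and Col6a3, were among the other 16. Within the nAAC group, replicate 4 held the highest value of 16 genes and replicate 3 the lowest of 18, whereas replicate 1 was highest for Col5a2, Col4a3, Col12a1, Col16a1 and Col8a1. Without sham replicate 4 the test called 17 of the 21, and Col4a4 was the gene lost.

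**Figure D1:**
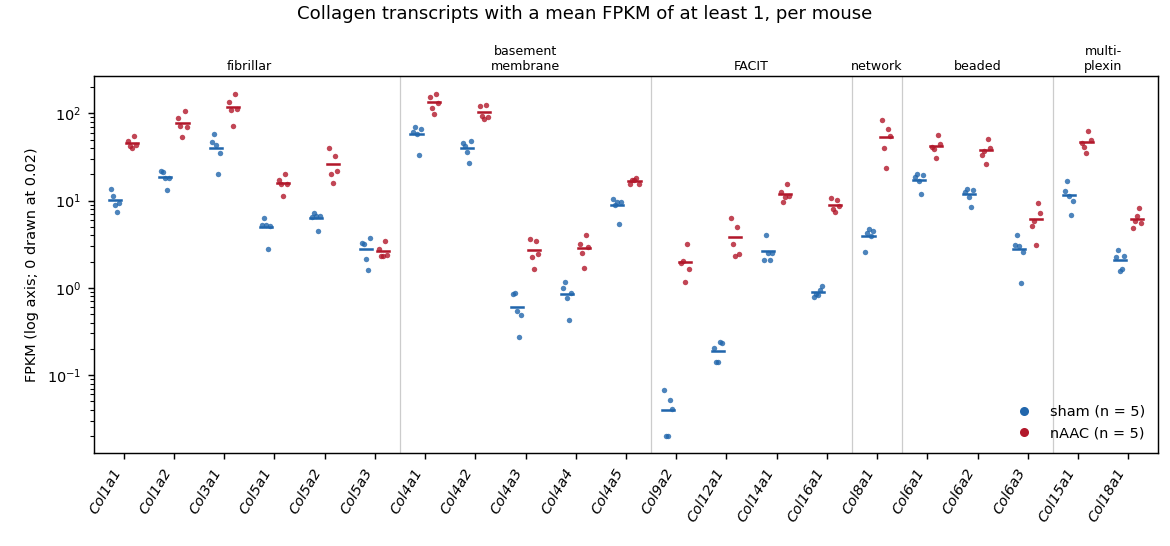
FPKM of each tested collagen gene in each mouse on a log axis, grouped by class, with blue points for the 5 sham mice, red points for the 5 nAAC mice and a bar at each group mean. The groups are apart for every gene except Col5a3 and Col6a3, and Col8a1 runs from 3.98 in sham to 54.0 in nAAC mice on average.

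Fibrillar collagens rose in 5 of the 6 genes tested, with a class median log2 FC of 1.70 (1.43 after median-ratio scaling, when the same 5 were called). The gene that did not rise was Col5a3. Types I and III make up most cardiac fibrils, and type V starts and limits their growth from within.

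Col3a1 (ENSMUSG00000026043, chr1:45311538-45349706, GRCm38), the chain of type III collagen, had the highest FPKM of the class. It stood at 135.0, 109.9, 72.0, 168.7 and 112.1 FPKM in nAAC replicates 1 to 5 and at 47.2, 57.4, 43.5, 19.9 and 35.3 in sham replicates 1 to 5. The groups were separate, but the lowest nAAC mouse was only 1.25 times the highest sham mouse, and sham replicate 4 was well below the other sham mice. The log2 FC was 1.56 (SE 0.273, limma adjusted p = 9.1e-04) and 1.33 without sham replicate 4.

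Col1a2 (ENSMUSG00000029661, chr6:4504814-4541544), the second chain of type I collagen, was at 89.7, 72.1, 53.1, 106.9 and 70.7 FPKM in nAAC and 22.1, 21.3, 18.02, 13.3 and 18.1 in sham mice. Its log2 FC was 2.004 (SE 0.190, adjusted p = 6.74e-06). Col1a1 (ENSMUSG00000001506, chr11:94936224-94953042), its partner chain, had the largest log2 FC of the tested genes of the class. Its FPKM was 48.0, 42.8, 40.1, 55.0 and 43.8 in nAAC and 13.5, 11.3, 8.84, 7.44 and 9.51 in sham mice. The nAAC mice varied little for this gene, with a coefficient of variation of 12.6%, and the log2 FC was 2.09 (SE 0.153, adjusted p = 7.89e-07).

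The 3 chains of type V collagen did not move together. Col5a1 rose from 4.97 ± 1.31 (SD, n = 5) to 15.9 ± 3.23 FPKM, and Col5a2 from 6.28 ± 1.05 to 26.1 ± 9.73, with log2 FCs of 1.51 and 1.84. Col5a3 (ENSMUSG00000004098, chr9:20770050-20815067), the least widespread chain of type V, was at 2.78, 2.32, 2.30, 3.45 and 2.36 FPKM in nAAC and 3.23, 3.22, 2.15, 1.61 and 3.70 in sham mice. These ranges overlapped almost entirely. Its log2 FC was -0.03 (SE 0.164, adjusted p = 0.897) and 0.11 with TPM. After trends on transcript length and GC content were removed it was -0.53 with a limma adjusted p of 0.00742, and it was a DEG at no setting.

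The difference between the type V chains was tested directly as a ratio within each mouse, which does not depend on the scaling between libraries. The ratio of Col5a3 to Col5a1 FPKM was 0.162, 0.151, 0.204, 0.171 and 0.154 in nAAC and 0.608, 0.512, 0.407, 0.582 and 0.718 in sham mice. No nAAC mouse reached any sham mouse, and the mean log2 ratio was lower in nAAC by -1.73 (SE 0.158, two-sided exact permutation p = 0.0079, the smallest that 5 against 5 mice allow, and 0.022 after adjustment over 11 ratios).

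The 250 bases before the RefSeq start of Col5a1 and Col5a3 are shown because these chains of one collagen type differed in response, and those of Col3a1 because it led its class in level. They are GRCm38.p6 windows that overlap no annotated exon, written 5′ to 3′ on the strand of the gene at chr2:27886175-27886424 (plus), chr9:20815068-20815317 (minus) and chr1:45311288-45311537 (plus). Capitals mark every match, on either strand, to 4 motifs: the CCAAT box, the GC box GGGCGG, the letters GCGTG at the core of sites bound by the aryl hydrocarbon receptor (the transcription factor that the study follows) and the TATA box TATAAA. A match on the other strand appears as its reverse complement.
Col5a1: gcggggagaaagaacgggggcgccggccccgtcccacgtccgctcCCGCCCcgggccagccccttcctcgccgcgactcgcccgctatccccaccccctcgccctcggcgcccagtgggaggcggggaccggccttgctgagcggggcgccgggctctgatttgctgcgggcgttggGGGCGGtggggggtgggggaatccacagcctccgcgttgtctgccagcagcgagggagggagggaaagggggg
Col5a3: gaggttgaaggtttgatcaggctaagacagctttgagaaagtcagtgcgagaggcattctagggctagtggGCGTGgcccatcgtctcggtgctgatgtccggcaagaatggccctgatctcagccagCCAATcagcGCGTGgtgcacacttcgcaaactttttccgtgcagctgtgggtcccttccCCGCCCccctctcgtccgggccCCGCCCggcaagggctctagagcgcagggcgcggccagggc
Col3a1: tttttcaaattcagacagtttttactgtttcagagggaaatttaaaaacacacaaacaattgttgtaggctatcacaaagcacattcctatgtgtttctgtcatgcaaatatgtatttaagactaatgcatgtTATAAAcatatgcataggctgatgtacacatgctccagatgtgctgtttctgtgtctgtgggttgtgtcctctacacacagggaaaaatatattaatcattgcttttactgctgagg
The Col5a1 window held GGGCGG at -205 and -73, counted from the start site with -1 as the base before it. The Col5a3 window held GGGCGG at -63 and -41, CCAAT at -122 and GCGTG at -179 and -113. The Col3a1 window held only TATAAA, at -117. No match of these motifs overlapped another in the windows shown. Over all 32851 RefSeq windows of this length, CCAAT was present in 33.85%, GGGCGG in 32.74%, GCGTG in 28.16% and TATAAA in 12.37%. Windows were found for 35 of the 44 collagen genes and numbered 38, of which 13, 22, 8 and 5 held these motifs in the same order. A match is a description of letters and says nothing about binding.

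Fibrillar genes other than these were low. Col27a1 was at 1.12 FPKM in nAAC and 0.252 in sham mice, and Col11a1, best known from cartilage, at 0.364 and 0.0290, both with separate groups. Col11a2 was at 0.280 and 0.122, with nAAC higher in all mice by a narrow margin (0.190 for the lowest nAAC and 0.185 for the highest sham mouse). In the fit without a filter its limma adjusted p was 0.162. Col24a1 was at 0.0633 and 0.00822 with overlapping groups. Col2a1, the main fibrillar collagen of cartilage, was listed at 0 in 6 of the 10 libraries and reached at most 0.201, in nAAC replicate 4.

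**Figure D2:**
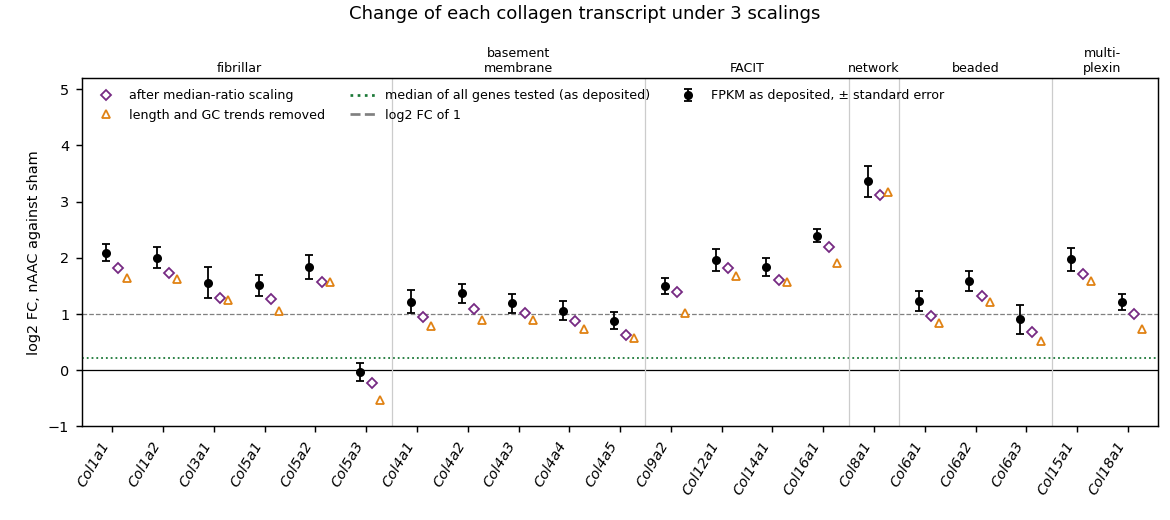
Log2 FC of nAAC against sham for each tested collagen gene, with black points and standard errors for FPKM as deposited, violet diamonds after median-ratio scaling and orange triangles after removal of length and GC trends. The dotted line is the median of all genes (0.22) and the dashed line the DEG threshold of 1. Col5a3, the type IV genes, Col6a1, Col6a3 and Col18a1 lie below the threshold at 1 or more of the settings, while Col8a1 stays above 3.

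Basement membrane collagens rose in 4 of the 5 genes tested, with a class median log2 FC of 1.19. Col4a3 and Col4a4 passed the filter through their nAAC level, and without them 2 of 3 rose. After median-ratio scaling 2 of the 5 were called (Col4a2 and Col4a3, class median 0.94), and after the length and GC trends were removed none was, although all 5 kept a positive log2 FC of 0.58 to 0.89.

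Col4a1 and Col4a2 are the chains of the trimer found in nearly all basement membranes, and were the most abundant members of the class. Col4a1 (ENSMUSG00000031502, chr8:11198423-11312826) was at 154.7, 115.2, 98.8, 168.9 and 130.2 FPKM in nAAC and 60.6, 69.5, 57.5, 33.3 and 66.4 in sham mice, with a log2 FC of 1.22 (SE 0.210, adjusted p = 7.98e-04). Sham replicate 4 was again the lowest, and without it the log2 FC was 1.04. Col4a2 (ENSMUSG00000031503, chr8:11312805-11449287) was at 122, 93.7, 85.5, 125 and 90.8 FPKM in nAAC and 45.4, 41.8, 36.2, 27.3 and 47.8 in sham mice. Its log2 FC was 1.37 (SE 0.174, adjusted p = 7.47e-05), the largest of the class on the log2(FPKM + 1) scale, whereas Col4a3 had the larger fold of the means (4.47 against 2.61). The genes lie head to head on opposite strands and overlap by 22 bases. The ratio of Col4a1 to Col4a2 was 1.29 ± 0.109 in nAAC and 1.44 ± 0.183 in sham mice (n = 5 each), a log2 difference of -0.16 with an SE of 0.098 (exact permutation p = 0.17, adjusted p = 0.20).

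Col4a3, Col4a4 and Col4a5 form a further type IV trimer, best known from the kidney glomerulus, and Col4a5 is also joined with Col4a6. Col4a3 rose from 0.603 ± 0.252 to 2.69 ± 0.830 FPKM and Col4a4 from 0.845 ± 0.280 to 2.89 ± 0.891, with log2 FCs of 1.19 and 1.06. These neighbours on chromosome 1 are also head to head, with 71 bases between them. Col4a5 (ENSMUSG00000031274, chrX:141475385-141689234) was at 15.6, 17.4, 17.2, 18.03 and 15.4 FPKM in nAAC and 10.5, 8.99, 9.52, 5.35 and 9.66 in sham mice. All nAAC mice lay above all sham mice and within a narrow range, with a coefficient of variation of 7.0%. The log2 FC of 0.88 (SE 0.153, adjusted p = 8.64e-04) was under the DEG threshold. With Xist as a covariate, which differs between the sexes, it was 0.98, and with TPM it was 1.07 (adjusted p = 3.85e-04) and Col4a5 was called. Col4a6, its neighbour on the X chromosome, was at 0.483 and 0.171 FPKM in nAAC and sham mice.

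FACIT collagens rose in the 4 genes tested of 9, and the same 4 were called after median-ratio scaling and after removal of the length and GC trends. Of these, Col9a2, Col12a1 and Col16a1 had a sham mean below 1 FPKM and passed the filter only through their nAAC level, so that they had to differ, and the count of 4 and the median log2 FC of 1.90 are no support for a change of the class. Col14a1 was the FACIT tested whatever its nAAC level, and it rose. Types XII and XIV bind to the surface of type I fibrils, type XVI is found near basement membranes and fibrils, and type IX is a cartilage FACIT.

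Col14a1 (ENSMUSG00000022371, chr15:55307750-55520803) was the most abundant at 12.5, 9.57, 10.9, 15.6 and 11.4 FPKM in nAAC and 2.10, 4.01, 2.54, 2.11 and 2.49 in sham mice, a log2 FC of 1.84 (SE 0.156, adjusted p = 2.77e-06). Sham replicate 2 was above the other sham mice. Col16a1 (ENSMUSG00000040690, chr4:130047840-130099283) was at 10.9, 8.03, 7.40, 10.1 and 8.65 FPKM in nAAC and 0.783, 0.843, 0.827, 0.935 and 1.06 in sham mice. Its sham values were tight and the lowest nAAC mouse was 6.96 times the highest sham mouse. With a log2 FC of 2.40 (SE 0.115, adjusted p = 3.3e-08) it ranked 52 of the 11867 genes by log2 FC.

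Col9a2 (ENSMUSG00000028626, chr4:121039385-121055322) was at 1.91, 2.04, 1.18, 3.16 and 1.65 FPKM in nAAC mice, and in sham mice at 0.0667, 0.0519 and 0.0409 in replicates 1, 4 and 5 and listed at 0 in replicates 2 and 3. The groups were far apart at a low level, and the log2 FC of 1.5 (SE 0.148, adjusted p = 9.6e-06) was the smallest of the class on the log2(FPKM + 1) scale. Its partner chains Col9a1 and Col9a3 did not exceed 0.0259 and 0.112 FPKM in any mouse. Among 7 cartilage markers, 3 were tested (Comp, Sox9 and Chad), and all 3 had a sham mean below 1 FPKM. They passed the filter only through their nAAC level, so that their count is no support for a change of the list. Comp and Sox9 rose, from 0.901 to 24.4 and from 0.377 to 2.45 FPKM. The summed FPKM of the 7 was 16.2 to 45.3 in nAAC and 1.04 to 3.06 in sham mice, and of the defining markers Matn3 was at 0 in all libraries, Matn1 at 0.00502 in nAAC and 0 in sham mice, and Acan at 0.377 and 0.0190. Comp and Sox9 are also expressed by fibroblasts and other cells, and their part in the Col9a2 difference was not tested.

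Col12a1 rose from 0.191 ± 0.0467 to 3.84 ± 1.74 FPKM (n = 5 each), with a log2 FC of 1.95. The ratio of Col12a1 to Col14a1 was 0.504, 0.331, 0.212, 0.320 and 0.217 in nAAC and 0.0969, 0.0350, 0.0563, 0.112 and 0.0927 in sham mice. These values did not overlap, and the log2 ratio was higher in nAAC by 2.05 (SE 0.387, exact permutation p = 0.0079, adjusted p = 0.022). Col12a1 passed the filter on the mean only through its nAAC level, which also made this ratio eligible for the test. The p-value is therefore no support for a shift between these types. With a pseudocount of 1 the difference was 0.12 (adjusted p = 0.65), since the sham level of Col12a1 lies far below 1 FPKM.

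Among the low FACITs, Col22a1, found at tissue junctions, was at 0.639, 0.911, 0.516, 0.900 and 0.238 FPKM in nAAC mice and at no more than 0.0297 in any sham mouse. Col20a1 was at 0.243 and 0.0925 with overlapping groups, and it shares 741 bases on one strand with the gene 9230112E08Rik (0.833 and 0.735 FPKM), so its reads may be split. Col19a1 was listed at 0 in all 10 libraries.

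Type VIII collagen led the network class, and on the log2(FPKM + 1) scale Col8a1 had the largest difference among the tested collagens. With a pseudocount of 0.1 the log2 FCs of Col9a2 (3.95) and Col12a1 (3.67) were above that of Col8a1 (3.63), and by the fold of the means Col9a2, Col22a1, Col12a1 and Col8a2 exceeded it (62.2, 44.6, 20.2 and 19.9 against 13.6). Col8a1 (ENSMUSG00000068196, chr16:57624258-57754737) is a short-chain collagen of the vessel wall and of the membrane beneath the corneal endothelium. It was at 83.8, 39.8, 23.8, 66.7 and 55.8 FPKM in nAAC and 2.58, 4.22, 4.73, 3.93 and 4.44 in sham mice. The lowest nAAC mouse was 5.03 times the highest sham mouse, yet the nAAC mice themselves spread widely, with a coefficient of variation of 43.1%. The log2 FC was 3.36 (SE 0.276, adjusted p = 2.14e-06), rank 19 among the genes tested, and 3.11 with median-ratio scaling.

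The window before the Col8a1 start is shown because this gene had the largest log2 FC on that scale. It covers chr16:57754738-57754987 (GRCm38.p6, minus strand), with capitals as above.
Col8a1: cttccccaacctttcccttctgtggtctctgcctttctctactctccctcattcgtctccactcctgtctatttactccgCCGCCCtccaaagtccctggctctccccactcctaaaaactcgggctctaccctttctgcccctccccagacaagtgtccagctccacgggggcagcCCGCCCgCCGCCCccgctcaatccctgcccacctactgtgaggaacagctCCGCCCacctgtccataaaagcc
It held GGGCGG at -170, -73, -66 and -23, in each case on the other strand, and no match to the other motifs.

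Col8a2 (ENSMUSG00000056174, chr4:126286793-126314330), the second chain of type VIII, was below the limit for the test. Its FPKM was 1.29, 1.84, 1.28, 1.92 and 1.15 in nAAC and 0.108, 0.0116, 0.0393, 0.0671 and 0.149 in sham mice, which did not overlap. In the fit without a filter its log2 FC was 1.21 (SE 0.099, limma adjusted p = 7.3e-05). The ratio of Col8a1 to Col8a2 was 18.6 to 64.8 in nAAC and 23.9 to 363.8 in sham mice and was not tested because of the low sham level of Col8a2. Col10a1, a collagen of hypertrophic cartilage, was listed at 0 in 6 libraries, did not exceed 0.0418 FPKM, and lies inside Nt5dc1 on the opposite strand.

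Beaded type VI collagens rose in 2 of the 3 genes tested, with a class median log2 FC of 1.23. Col6a1 (ENSMUSG00000001119, chr10:76708792-76726168) was at 41.5, 38.9, 30.8, 56.3 and 44.4 FPKM in nAAC and 18.6, 20.1, 16.8, 11.9 and 19.7 in sham mice, a log2 FC of 1.23 (SE 0.176, adjusted p = 1.92e-04). After median-ratio scaling it was 0.96 and no longer a DEG. Col6a2 (ENSMUSG00000020241, chr10:76595762-76623630) was at 33.7, 37.0, 26.6, 50.9 and 40.3 FPKM in nAAC and 12.6, 13.7, 11.1, 8.35 and 13.3 in sham mice. Its log2 FC of 1.58 (SE 0.176, adjusted p = 2.56e-05) was the largest of the class and stayed above 1 under both other scalings.

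These chains are joined in the same trimer, yet their ratio differed between the groups. Col6a1 to Col6a2 was 1.23, 1.05, 1.16, 1.11 and 1.10 in nAAC and 1.48, 1.47, 1.51, 1.43 and 1.48 in sham mice. Sham mice were almost identical in this ratio and all lay above the nAAC mice, with a log2 difference of -0.38 (SE 0.041, exact permutation p = 0.0079, adjusted p = 0.022). The level of the ratio depends on the deposited column, since with coverage it was 2.45 ± 0.137 in nAAC and 3.22 ± 0.0611 in sham mice, but the difference did not.

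Col6a3 (ENSMUSG00000048126, chr1:90765923-90843971), the longest of these chains, was at 5.08, 5.90, 3.09, 9.39 and 7.29 FPKM in nAAC and 3.12, 4.06, 3.01, 1.14 and 2.58 in sham mice. The groups overlapped through nAAC replicate 3, and the log2 FC was 0.91 (SE 0.256, adjusted p = 0.0169), under the DEG threshold. It passed that threshold without nAAC replicate 3 and without sham replicate 2, with log2 FCs of up to 1.09. It also passed with TPM (1.13), a pseudocount of 0.1 (1.13) and Xist as a covariate (1.06). After median-ratio scaling, however, the log2 FC of Col6a3 was 0.68 (limma adjusted p = 0.0692). With the length and GC trends removed it was 0.51 (limma adjusted p = 0.0767). Without a filter on low values the log2 FC was unchanged, with a limma adjusted p of 0.064. In each of these fits the adjusted p was above the limit for a call. Col6a6, a further chain of type VI, was the collagen with the clearest lower values in nAAC mice, at 0.0873, 0.162, 0.129, 0.294 and 0.192 FPKM against 0.835, 0.858, 0.598, 0.260 and 0.566 in sham mice. The highest nAAC mouse exceeded sham replicate 4, and the other sham mice lay above all nAAC mice. In the fit without a filter its log2 FC was -0.46 (SE 0.104, adjusted p = 0.0167). Col6a4 and Col6a5 were listed at 0 in 8 libraries each.

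Both multiplexins rose, with log2 FCs of 1.98 and 1.21. Col15a1 (ENSMUSG00000028339, chr4:47208161-47313167) was at 46.2, 41.5, 35.6, 63.1 and 50.1 FPKM in nAAC and 12.7, 16.8, 11.2, 6.93 and 9.85 in sham mice (SE 0.207, adjusted p = 1.5e-05). Col18a1 (ENSMUSG00000001435, chr10:77052178-77166548), the source of the fragment endostatin, was at 4.82, 5.77, 6.63, 8.19 and 5.56 FPKM in nAAC and 2.27, 2.71, 1.56, 1.65 and 2.31 in sham mice (SE 0.146, adjusted p = 4.99e-05). Its log2 FC was 0.99 after median-ratio scaling. Slc19a1 overlaps Col18a1 on the opposite strand and was at 1.42 and 1.43 FPKM. The ratio of Col15a1 to Col18a1 was 7.77 ± 1.66 in nAAC and 5.48 ± 1.27 in sham mice, a log2 difference of 0.51 (SE 0.211) that did not pass the adjusted exact permutation test (p = 0.056, adjusted p = 0.10).

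No transmembrane collagen reached the level for the test. Col13a1 was at 0.560, 0.817, 0.816, 0.682 and 0.403 FPKM in nAAC and 0.126, 0.173, 0.253, 0.567 and 0.386 in sham mice, and Col23a1 at 0.471, 0.197, 0.139, 0.376 and 0.330 against 0.289, 0.187, 0.421, 0.210 and 0.247. Both overlapped between the groups, as did Col17a1 and Col25a1, which did not exceed 0.0210 and 0.136 FPKM. Of the unclassed genes, Col26a1 was at 0.472, 0.786, 0.526, 1.61 and 0.962 in nAAC and 0.433, 0.833, 0.577, 0.263 and 0.428 in sham mice. Col28a1 was at 0.701, 0.453, 0.263, 0.664 and 0.392 against 0.526, 0.822, 0.797, 0.431 and 1.36 FPKM. Neither was separate between the groups, whereas Col7a1 was, at 0.0645 to 0.217 in nAAC and 0.0114 to 0.0371 in sham mice.

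All 23 genes below the limit were examined in the fit without a filter, where 22 had a value. The call was an adjusted p below 0.05 alone, since log2(FPKM + 1) shrinks the fold of low genes, and Col8a2 was the gene among them that also had a log2 FC above 1. In that fit 11.6% of all genes passed as higher and 2.13% as lower. Of the 22, 7 passed as higher (Col11a1, Col27a1, Col4a6, Col20a1, Col22a1, Col8a2 and Col7a1) and 1, Col6a6, as lower. After median-ratio scaling Col20a1 was lost (adjusted p = 0.0933) and the others remained. The groups were separate with nAAC higher in 7 of the 23 genes, against 4.48% of all genes with a mean FPKM below 1 that were above 0 in some library, and with nAAC lower in none.

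**Figure D3:**
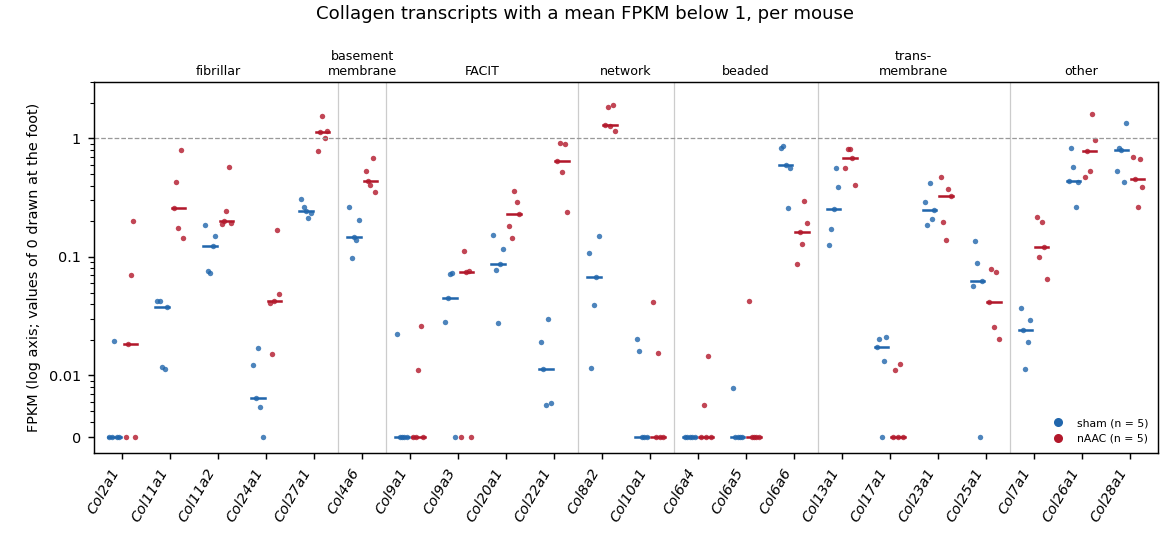
FPKM per mouse on a log axis of 22 of the 23 collagen genes with a mean below 1, with blue points for sham, red points for nAAC, a bar at each group median and values of 0 drawn at the foot. Col8a2, Col22a1 and Col27a1 are separated between the groups, and Col6a6 is lower in nAAC mice apart from an overlap between nAAC replicate 4 and sham replicate 4. Col19a1, at 0 in all libraries, is left out.

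Summed over the 44 genes, collagen transcripts amounted to 776 ± 174 FPKM in nAAC and 248 ± 55.0 in sham mice (SD, n = 5 each), 0.200% and 0.0653% of the FPKM of nuclear genes. The sums are descriptions without a test. The class sum was 13.7-fold higher in nAAC for the network class, 7.09-fold for FACITs, 3.93-fold for multiplexins, 3.47-fold for fibrillar, 2.65-fold for beaded and 2.42-fold for basement membrane collagens. The network sum was almost wholly Col8a1 (54.0 of 55.5 FPKM in nAAC and 3.98 of 4.065 in sham mice). Most of the multiplexin sum was Col15a1 (47.3 of 53.5 and 11.5 of 13.6). Basement membrane collagen was the largest class in every sham mouse, with 43.5% ± 2.47 of the pool against 33.6% ± 2.61 for fibrillar collagen. In nAAC mice these shares were 33.8% ± 1.96 and 37.2% ± 1.38, and fibrillar collagen was the larger in all but replicate 3.

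The basement membrane share was 31.9% to 37.0% in nAAC and 40.9% to 47.6% in sham mice, without overlap. The network share was 4.53% to 9.61% against 0.988% to 2.57%, the FACIT share 3.32% to 4.10% against 1.23% to 2.26%, and the beaded share 9.08% to 12.4% against 12.8% to 13.9%. Fibrillar and multiplexin shares overlapped between the groups by FPKM. Shares compare levels between genes and so rest on the normalization of each gene. Relative to the library's most frequent value, the ratio of FPKM to coverage had medians over the libraries from 1.03 for Col4a2 to 3.84 for Col15a1. The ratio also varied between libraries, from 1.32 to 5.155 for Col12a1 and from 1.31 to 1.73 for Col16a1. For these 2 genes the log2 FCs were 1.66 and 2.01 by coverage, against 1.95 and 2.40 by FPKM, and both were called either way. By coverage the basement membrane share was 44.0% ± 2.02 and 53.5% ± 2.24, and the fibrillar share 31.6% ± 0.998 and 27.2% ± 2.37, so that basement membrane collagen remained the larger class in both groups, while its share was again lower in nAAC mice without overlap. The fibrillar share by coverage was 30.5% to 32.9% in nAAC and 23.7% to 29.3% in sham mice, so that its overlap was gone.

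**Figure D4:**
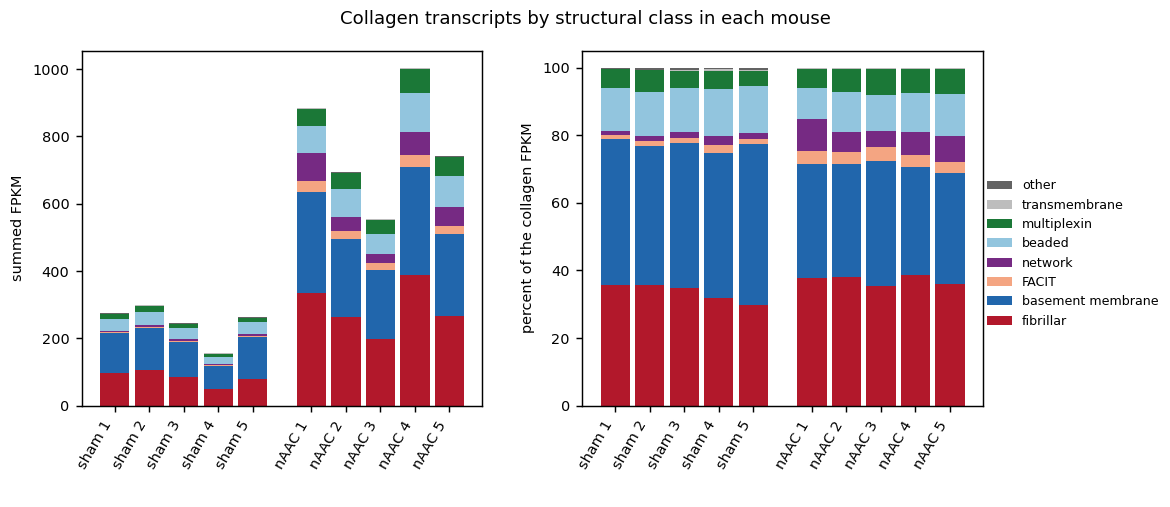
Summed FPKM of each collagen class (left) and its percent of all collagen FPKM (right) in each mouse, stacked from fibrillar at the foot to the unclassed genes at the top. The sum runs from 155.9 to 299.4 in sham and from 554.8 to 1005 in nAAC mice, and the basement membrane share is at or below 37.0% in every nAAC mouse and at or above 40.9% in every sham mouse.

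Of the 12 ratios between chains or types, 11 were tested and 4 passed after adjustment. These were Col5a3 to Col5a1, Col12a1 to Col14a1 (eligible only through the nAAC level of Col12a1), Col6a1 to Col6a2, and Col5a1 to Col1a1. The last was 0.343 ± 0.0350 in nAAC and 0.493 ± 0.102 in sham mice, with a log2 difference of -0.50 (SE 0.156, exact permutation p = 0.0079, adjusted p = 0.022). Its groups were separate by a narrow margin, 0.367 for the highest nAAC mouse and 0.372 for the lowest sham mouse, which was replicate 4. Col3a1 to Col1a1 was 2.56 ± 0.476 and 3.98 ± 1.005, a log2 difference of -0.62 (SE 0.215) that did not pass (exact permutation p = 0.024, adjusted p = 0.052). The ratio of Col1a1 to Col1a2, the chains of type I, was 0.603 ± 0.0944 in nAAC and 0.544 ± 0.0447 in sham mice by FPKM and 1.26 and 1.14 by coverage, so that which chain is the more abundant depends on the column. The FPKM ratios had a log2 difference of 0.14 (SE 0.110, exact permutation p = 0.25, adjusted p = 0.28). Col5a2 to Col5a1 (0.29, SE 0.168, adjusted p = 0.15), Col4a5 to Col4a1 (-0.28, SE 0.169, adjusted p = 0.19) and Col6a3 to Col6a1 (-0.12, SE 0.238, adjusted p = 0.60) did not pass the exact permutation test either, with differences smaller than or near the spread between mice.

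**Figure D5:**
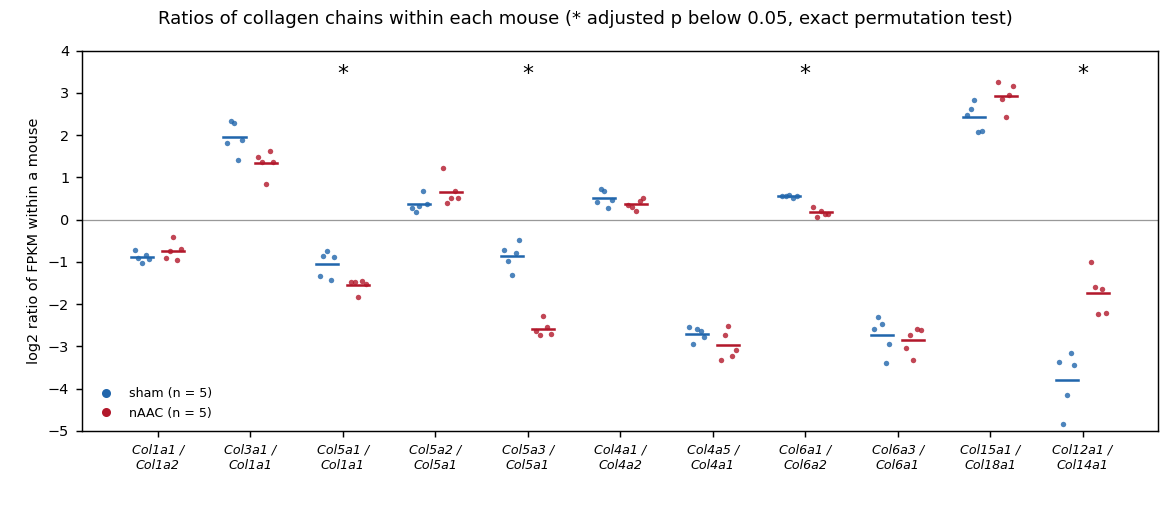
Log2 ratio of the FPKM of each pair of collagen genes within each mouse, with blue points for sham, red points for nAAC, bars at the group means and an asterisk where the adjusted exact permutation p is below 0.05. The groups are apart in the 4 starred pairs, by -1.73 for Col5a3 to Col5a1 and by 2.05 for Col12a1 to Col14a1. The latter pair was eligible for the test only through the nAAC level of Col12a1.

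Collagen chains are hydroxylated, folded and exported by a set of proteins in the endoplasmic reticulum, and 18 of 19 such genes were tested. Of these 4 rose (Serpinh1, P4ha1, P3h3 and P3h2), none fell, and 13 had an adjusted p below 0.05 and a positive log2 FC without regard to its size. Over all genes tested, that looser rule called 27.1% higher and 4.6% lower, and the DEG rule 5.01% and 0.893%. After median-ratio scaling 3 of the 4 DEGs were left, without Serpinh1. Serpinh1, the collagen chaperone HSP47, was at 116 ± 22.01 FPKM in nAAC and 48.1 ± 6.74 in sham mice (log2 FC 1.24, adjusted p = 9.17e-05). P4hb and Ppib, a subunit of prolyl 4-hydroxylase and a prolyl isomerase, had log2 FCs of 0.65 and 0.58 and were no DEGs. P3h2, a prolyl 3-hydroxylase that acts on type IV collagen, had the largest log2 FC of the tested genes of the list, from 0.981 to 9.22 FPKM (2.34). With that sham mean, P3h2 passed the filter only through its nAAC level.

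Of 12 genes that trim or cross-link collagen outside the cell, 9 were tested and 6 rose (Pcolce, Loxl1, Loxl2, Adamts2, Lox and Loxl3), none fell. The share of all genes tested that was called was 5.01% higher and 0.893% lower. Pcolce, which enhances cleavage of the procollagen C-propeptide, went from 14.3 ± 1.29 to 47.4 ± 8.75 FPKM (log2 FC 1.65, adjusted p = 2.17e-06). The lysyl oxidases Loxl1 and Loxl2 had log2 FCs of 1.65 and 1.47.

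Markers of the cells that make collagen moved unequally. Of 5 activated fibroblast markers 3 rose (Postn, Meox1 and Cthrc1), while Fap had a log2 FC of -0.04. Cthrc1, with a sham mean of 0.156 FPKM, passed the filter only through its nAAC level. Over all genes tested, 5.01% were called higher and 0.893% lower. The summed FPKM of the 5 markers was 189.5 to 324.2 in nAAC and 37.1 to 66.2 in sham mice. Of 8 fibroblast markers, Mfap5 and Pcolce (also in the list above) rose and 5 were higher with an adjusted p below 0.05, the rule that called 27.1% of all genes higher, with sums of 963 to 1424 and 652 to 913 FPKM. None of 6 endothelial markers was a DEG (195 to 311 and 168 to 245), and of 6 mural markers Myh11 and Cspg4 rose (177 to 277 and 139.5 to 245). By adjusted p alone, 4 of the 5 activated fibroblast, 1 of the 6 endothelial and 4 of the 6 mural markers were also higher. After median-ratio scaling Dcn, Lum, Acta2, Kdr and Pdgfrb no longer passed that rule (limma adjusted p of 0.0585 to 0.43). Among 6 cardiomyocyte markers none was a DEG, but Actc1 was higher in every nAAC mouse (log2 FC 0.60, adjusted p = 0.0146) and Tnni3 lower in every one, at 1813 ± 286.9 against 3303 ± 1173 FPKM (-0.82, adjusted p = 0.0147). After median-ratio scaling the log2 FC of Tnni3 was -1.1, and it was called lower. That of Actc1 was then 0.32 (limma adjusted p = 0.25). None was a DEG among 4 macrophage and leukocyte, 4 mesothelial, 2 Schwann cell and 5 erythroid genes tested. Of 4 atrial genes Nppa rose, which ventricular cardiomyocytes under load also express. Myl7, Myl4 and Sln had log2 FCs of 0.88, 1.32 and 0.89 with limma adjusted p of 0.334 to 0.528. Their values spread widely between mice. In nAAC mice Myl7 was at 0.654 to 79.8, Myl4 at 1.34 to 127.7 and Sln at 0 to 19.4 FPKM. In sham mice these genes were at 1.16 to 22.4, 1.82 to 17.8 and 0.0771 to 4.62 FPKM. The source of this spread was not tested. The part of any of these cell types in the collagen differences was not tested.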

How the data were processed

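LV RNA was extracted with Trizol and libraries were made with the NEBNext Ultra RNA kit, which does not mark strand, so reads of genes that overlap on opposite strands cannot be told apart. For each mouse the authors deposited a table of coverage, FPKM and TPM by gene. The deposited coverage is the average read depth along the gene, the deposited FPKM was normalized by the authors for library depth and gene length, and the deposited TPM rescales it to a fixed total. The column layout is that of StringTie, but aligner, quantifier and versions are not given in the sources used here. The submitters' processing notes name mm10, and the coordinates of all 44 collagen genes matched GENCODE M21 on GRCm38, as did 99.42% of shared genes. Read counts were not recovered, so no count model was used, and the depth in reads is unknown. Library size in gigabases was estimated from the commonest FPKM-to-coverage ratio among genes.

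Rows sharing a gene ID (12 to 21 per table) were summed. Groups follow the sample titles. FPKM was tested on log2(FPKM + 1) with limma 3.58.1 (R 4.3.3, trend in the empirical Bayes step) for the 11867 genes averaging at least 1 FPKM, with Benjamini-Hochberg adjustment over all of them and the study's thresholds. Chain ratios were compared by two-sided exact permutation tests in SciPy 1.17.1. On simulated data for this comparison, 195 of 200 genes changed by a log2 of 1.5 among 11867 were called, with 1 false call, and 4.74% of p-values of unchanged genes lay below 0.05. The changed genes were drawn only from genes above a minimum mean level, and the noise was independent for each gene and mouse. Genes near the filter limit and effects shared within a library were therefore not covered.

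The members, classes, ratios and lists were chosen with earlier results of these data known. Values per mouse are given for the 2 most abundant members of each class and for the tested members with its largest and smallest log2 FC; Col22a1, Col6a6, the ratios and some list genes were named per mouse or singled out after their values were seen. From the other lists the genes called and the 3 most abundant were to be named. The alternatives tried were scaling by median ratio or upper quartile, FPKM without the mitochondrial genome, TPM, a pseudocount of 0.1, no filter, a replicate block, Xist as a covariate, removal of length and GC trends, other call rules and leaving out each mouse. The coverage column and no filter with median-ratio scaling were added after the data were seen. Protein sequences were not used here, so the planned helix features were not computed.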

Additional observations from a re-analysis of the deposited data

Results flagged for a closer look

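Of 82 groups of 5 mice examined (each tested gene, ratio and class sum in each group), 7 had a mouse whose gap to its nearest neighbour exceeded 0.71 of the range of the group, Dixon's limit for 5 samples. Chance gives about 1 in 20 groups, or 4.1 here. Sham replicate 4 was the lowest sham mouse in 5 of the 7, with a gap of 0.74 of the range for Col5a1, 0.78 for Col5a2, 0.74 for Col4a1, 0.77 for Col4a5 and 0.71 for the summed basement membrane collagens. For Col14a1 sham replicate 2 was the highest, with a gap of 0.72. For the ratio of Col5a1 to Col1a1 nAAC replicate 3 was the lowest, with a gap of 0.83.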

How the results depend on the processing

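The number of collagen genes that rose was 12 to 20 under every alternative but one, and no collagen gene fell: it was 15 with upper-quartile scaling, 14 with median-ratio scaling, 12 after removal of length and GC trends, 20 with TPM, and 17 to 19 when single mice were left out. Tested against a log2 FC of 1, 7 were called. All of these counts include Col12a1 and Col16a1, which had a sham mean below 1 FPKM. Over all genes, the counts higher and lower were 371 and 206 with median-ratio scaling, 377 and 200 with upper-quartile scaling, 334 and 200 after removal of the trends, 952 and 169 with a pseudocount of 0.1, 3211 and 546 by adjusted p alone, and 144 and 20 against a log2 FC of 1. With TPM 979 were higher, and with no filter and median-ratio scaling 369 were higher and 215 lower. Replicate numbers did not pair the mice (correlations of the deviations of same-numbered mice from -0.316 to 0.192), and with the replicate block 18 collagen genes rose, as without it. Col5a3 changed sign with TPM (0.105) and without single mice (0.001, 0.017, 0.016 and 0.054, over a range of -0.158 to 0.054). After removal of the trends it was -0.532 (limma adjusted p = 0.00742), and it was a DEG under none of these. Of the ratios, Col12a1 to Col14a1 fell to 0.116 (adjusted p = 0.65, exact permutation test) with a pseudocount of 1. Col15a1 to Col18a1 passed with that pseudocount (0.765, adjusted p = 0.022) and without nAAC replicate 3 (0.633, adjusted p = 0.035; range 0.419 to 0.633). Without sham replicate 4, Col3a1 to Col1a1 (-0.751, range -0.751 to -0.496) and Col5a2 to Col5a1 (0.372, range 0.155 to 0.372) also passed. The causes were not tested beyond what each alternative changes. Depth in reads is unknown, which limits statements on genes under 1 FPKM.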

Other observations

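Of 13 receptor genes 9 were tested, and Ddr1, a discoidin domain receptor for collagen, and Mrc2, which takes up collagen for breakdown, rose from 4.31 to 10.2 and from 2.10 to 9.77 FPKM (log2 FC 1.10 and 1.79). The DEG rule called 5.01% of all genes tested higher and 0.893% lower. After median-ratio scaling Mrc2 was still a DEG and Ddr1 (0.86) was not. Itgb1, the shared chain of the collagen-binding integrins, was the most abundant at 148 and 113 FPKM with a log2 FC of 0.39 (limma adjusted p = 0.0242). After median-ratio scaling its log2 FC was 0.11 (limma adjusted p = 0.587). Cd93 was at 20.4 and 15.6 FPKM (adjusted p = 0.193 as deposited). Antxr2, a receptor that binds type IV and type VI collagen, had lower values in every nAAC mouse than in any sham mouse, 12.5 ± 0.917 against 17.96 ± 1.85 FPKM (SD, n = 5), with a log2 FC of -0.49 (SE 0.109, limma adjusted p = 0.00468) that stayed under the fold threshold.

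Of 10 genes of collagen degradation 7 were tested, and Mmp2, a gelatinase, and Timp1, an inhibitor of such proteases, rose from 23.6 to 56.1 and from 1.47 to 10.7 FPKM (log2 FC 1.21 and 2.20). Among all genes tested, 5.01% were called higher and 0.893% lower. After median-ratio scaling Timp1 was still a DEG and Mmp2 (0.93) was not. Timp3 and Ctsl, the most abundant of the list, were at 83 and 58.1 and at 62.4 and 43.2 FPKM, with adjusted p of 0.0526 and 0.0713. The collagenases Mmp8 and Mmp13 were below 1 FPKM in the mean, at 0.150 and 0.0571 and at 0.0822 and 0.235.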
